A study of Homo sapiens with 24 samples.

Results

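Noncoding snoRNA host genes are long noncoding RNA genes whose introns carry small nucleolar RNAs (snoRNAs). They were taken here as every gene listed in the TPM tables under a symbol made of SNHG and a number, together with GAS5, ZFAS1 and DANCR, which gave 28 of the 58884 genes listed. The cells were HEK293T, a line derived from human embryonic kidney, and 10 of their RNA-seq libraries were compared, in 2 tables that the labels call batch 1 and batch 2. SETD2 is the methyltransferase that places H3K36me3 on the bodies of transcribed genes, and the question was how the host transcripts stood when SETD2 was removed and when it was put back in a complete or a shortened form. The first table, batch 1, holds 2 wild-type (WT) libraries and 2 of the SETD2 knockout (KO), all labelled untreated. The second holds 2 untreated KO libraries, 2 of KO cells that received full-length SETD2 (SETD2 FL) and 2 of KO cells that received a C-terminal segment (SETD2 C, residues 1404 to 2564), with RNA taken 72 h after transfection. Per the study a CMV promoter drove the constructs, so the transfection and the construct cannot be told apart where a transfected group is set against untreated KO. The labels do not say whether replicates were separate cultures, and p-values then measure the spread between these libraries, which may be technical. A TPM is a transcript level set against transcript length and the sum over its library, and it keeps no record of how deeply a library was sequenced.

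After transcription of a host gene the introns are removed, and most snoRNAs are released from the spliced introns by trimming, while the joined exons leave as a separate RNA. The snoRNAs of box C/D guide ribose methylation and those of box H/ACA guide pseudouridylation, chiefly of ribosomal RNA, and the related scaRNAs guide the same changes on spliceosomal RNA. The spliced exons of many hosts have short reading frames and are degraded by nonsense-mediated decay (NMD) when ribosomes read them, and several hosts begin with a terminal oligopyrimidine tract (TOP), the start that messenger RNAs of the translation machinery use. The levels read here are those listed for the host genes. Libraries selected for polyadenylated RNA hold little of most snoRNAs, though some had a TPM above 0, as given below.

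All 28 genes were lncRNAs in GENCODE 44 on GRCh38, and each held at least 1 snoRNA gene within its bounds in GENCODE or RefSeq. RefSeq placed 146 snoRNA or scaRNA genes inside them, of which 63 remained without SNHG14, the host of the SNORD115 and SNORD116 clusters. GAS5 held 11, SNHG1 held 9, SNHG17 held 5 and SNHG12 held 4, while SNHG8, SNHG10, SNHG21 and DANCR held 1 each. Of the 140 that GENCODE places there, all of them listed in the tables, 10 had a TPM above 0 in a library of the first table and 18 in the second. In the second the highest were the SNORD22 entries inside SNHG1, which reached 149.9 and 215.6. Whether such reads entered the host values was not tested. A coding gene overlapped 18 of the 28, as GLRX5 does SNHG10 and ZNFX1 does ZFAS1 on the opposite strand, and RCC1 does SNHG3 on the same strand. Whether the counting used strand is not given in the sources used here, so reads of such pairs may have been divided between them.

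The starts of 24 of the 28 genes were found by symbol among the RefSeq promoters of GRCh38.p14, and SNHG6, SNHG9, SNHG15 and SNHG25 had no entry. Shown are 50 bases around the start, 20 before it and 30 from it on, read 5′ to 3′ on the gene's strand. They are given for 11 of the hosts that were higher or lower with SETD2 C in at least 1 comparison. SNHG3, SNHG11, SNHG17 and SNHG26 were also called there and have an entry, but are not shown. Capitals mark the start base and, where that is a C, the unbroken run of C and T that it opens. The windows are chr11:62855856-62855905 (SNHG1, minus strand), chr15:82750544-82750593 (SNHG21, plus strand), chr14:95534843-95534892 (SNHG10, minus strand), chr1:28581844-28581893 (SNHG12, minus strand), chr20:49278622-49278671 (ZFAS1, plus strand), chr16:2155329-2155378 (SNHG19, minus strand), chr1:173869016-173869065 (GAS5, minus strand), chr6:85678704-85678753 (SNHG5, minus strand), chr4:118278742-118278791 (SNHG8, plus strand), chr17:76557744-76557793 (SNHG16, plus strand) and chr4:52712374-52712423 (DANCR, plus strand).
SNHG1: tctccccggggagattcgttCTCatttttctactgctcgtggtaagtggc
SNHG21: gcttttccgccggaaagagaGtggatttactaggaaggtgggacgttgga
SNHG10: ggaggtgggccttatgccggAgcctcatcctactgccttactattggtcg
SNHG12: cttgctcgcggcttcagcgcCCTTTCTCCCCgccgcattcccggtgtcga
ZFAS1: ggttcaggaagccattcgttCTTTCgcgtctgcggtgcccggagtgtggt
SNHG19: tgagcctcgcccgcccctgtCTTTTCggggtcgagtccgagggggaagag
GAS5: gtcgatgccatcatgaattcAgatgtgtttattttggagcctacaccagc
SNHG5: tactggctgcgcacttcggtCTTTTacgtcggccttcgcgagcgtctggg
SNHG8: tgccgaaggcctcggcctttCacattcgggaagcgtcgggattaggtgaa
SNHG16: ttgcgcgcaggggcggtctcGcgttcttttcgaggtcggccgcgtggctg
DANCR: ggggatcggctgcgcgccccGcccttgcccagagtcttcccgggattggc

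SNHG12 opens with a run of 11 C or T bases, SNHG19 with 6, and ZFAS1 and SNHG5 with 5 each. SNHG1 opens with a run of 3, SNHG8 with a single C, and the other 5 shown begin with another base. A C followed by at least 6 bases that were each C or T, beginning within 20 bases of the start on the gene's strand, was present in 8 of the 24 host promoters (33.3%) and in 7556 of all 35116 promoters of the table (21.5%). A stricter form, chosen after the sequences were seen, asked for a C at the start base itself and at least 4 further C or T bases. It was met by SNHG4, SNHG5, SNHG12, SNHG18, SNHG19 and ZFAS1, which is 6 of 24 (25%), beside 1429 of all promoters (4.07%). The annotated start varies between RefSeq and GENCODE, by 1259 bases for SNHG12, whose run is the longest shown, by 464 for ZFAS1, 199 for SNHG5, 163 for GAS5 and 47 for SNHG19. A run in these letters therefore describes the RefSeq start alone.

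Host RNA levels spanned a wide range. SNHG29, host of SNORD49A, SNORD49B and SNORD65, was the most abundant in both tables, with a TPM of 556 and 586 in WT and of 1051 and 1179 in KO of the second table. GAS5, named for its accumulation in growth-arrested cells, and SNHG5 followed in each table by the mean over all its libraries. The order differed within groups. SNHG5 lay above GAS5 in both KO libraries of the first table, and SNHG1 lay above SNHG5 in both SETD2 C libraries. SNHG18 and SNHG27 were listed at 0 in every library, and SNHG14 and SNHG28 did not exceed 0.40 in any. A gene was tested where its TPM reached 0.5 in at least 2 libraries of its table, which kept 23 hosts in the first and 24 in the second. The gene that made the difference was SNHG22, which passed through 1 KO and 1 SETD2 FL library with a TPM of 0.67 each. The TPM of all 28 hosts summed to 2267 and 2264 in WT, 2257 and 2172 in KO of the first table, 4545 and 4875 in KO of the second, 4032 and 4089.97 in the SETD2 FL libraries, and 5425 and 5355 in the SETD2 C libraries. These sums, like each TPM given in this text, are of TPM as deposited, before scaling, so they are not on the scale of the fold changes. Fold changes use scaled TPM. The divisors in the second table were 0.966 and 0.957 in KO, 0.956 and 0.994 for SETD2 FL, and 1.06 and 1.07 for SETD2 C. Those of the first table follow below. Levels are not compared between the tables, which are labelled as separate batches.

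**Figure D1:**
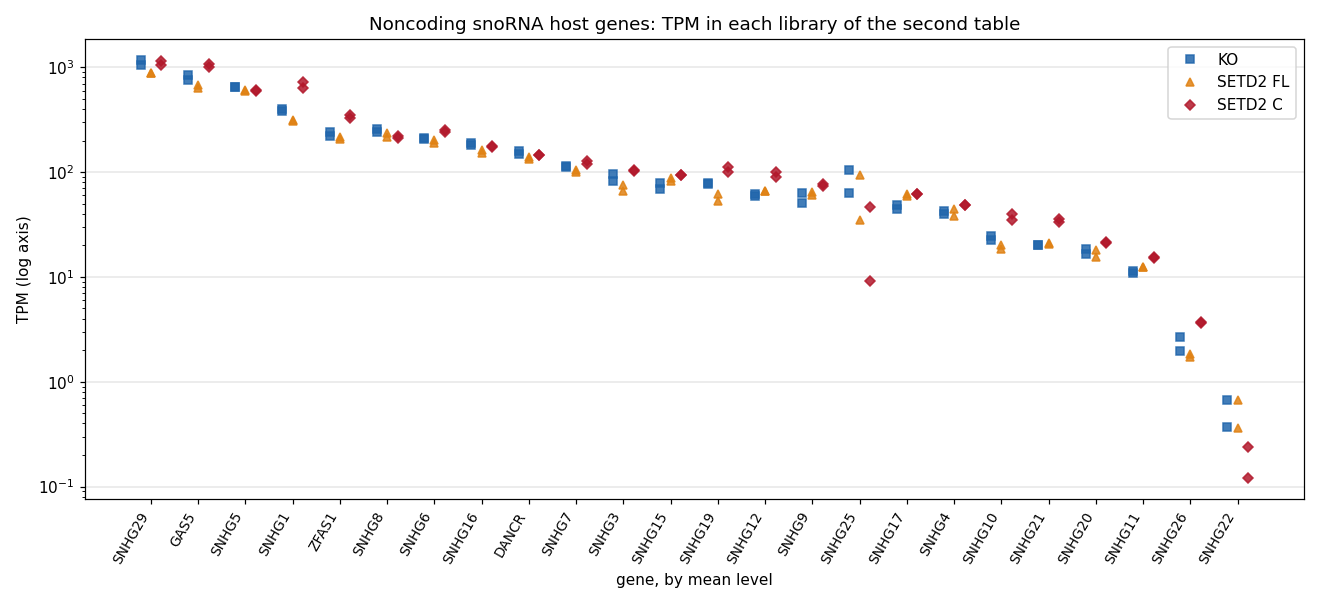
TPM of the 24 tested hosts in each library of the second table, on a log axis, with genes in order of mean level; squares are KO, triangles SETD2 FL and diamonds SETD2 C, 2 libraries each. The 2 SETD2 C libraries lie above the other 4 for SNHG1, ZFAS1, SNHG10 and SNHG21, and the libraries of one group lie far apart for SNHG25.

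SETD2 itself was read first, since it checks the labels. Libraries labelled WT had a SETD2 TPM of 12.6 and 14.8, and those labelled KO in the first table had 16.2 and 16.3 (log2 fold change 0.11, standard error 0.08, limma adjusted p = 0.408). The targeted transcript was thus no lower under the KO label. A disrupted gene can still be transcribed, so this level does not test the loss of the protein, and directions between WT and KO below are those of the labels. In the second table KO had 11.99 and 12.15, and the constructs brought SETD2 to 439 and 422 (FL) and to 1329 and 1264 (C). These levels divide construct reads by the length of the natural transcript, so those of the 2 constructs cannot be compared exactly. Of 9 genes known from HEK293T cells, none was at 0 in any library and VIM was the most abundant. Their summed TPM was 769 and 902 in WT, 1098 and 1053 in KO of the first table, 1120.5 and 1122 in KO of the second, 955.5 and 1081 in SETD2 FL libraries, and 1589 and 1670.0 in SETD2 C libraries. KRT8, a keratin, was at 28.2 and 29.3 in KO and at 98.1 and 97.9 with SETD2 C. By limma adjusted p of at most 0.05, 5 of the 9 were higher and 0 lower with SETD2 C than in KO. Over all genes these were 21.1% and 15.1%. Against SETD2 FL 7 were higher and 1, CDH2, lower, beside 21.4% and 16.8% of all genes. In KO against WT 2 were higher and 1 lower, beside 1.32% and 3.17%. Of 6 markers of other cell types, COL1A1 was the most abundant in every library, at 6.43 to 12.1, PTPRC, ALB, CD3E, PECAM1 and HBB stayed at or under 0.38, and HBB was listed at 0 in 9 libraries and PTPRC in 8. Summed over the 6, the TPM was 6.56 and 7.22 in WT and 10.47 and 10.65 in KO of the first table. In the second it was 7.10 and 7.18 in KO, 7.30 and 9.17 for SETD2 FL, and 12.66 and 11.05 for SETD2 C. The part of these genes in the host values was not tested.

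The comparison of KO with WT asks what the loss of SETD2 leaves of the host RNAs. SNHG10, SNHG1 and SNHG4 were lower in the libraries labelled KO, with fold changes of 0.694 to 0.760, and no host was higher by limma. SNHG10, which carries the scaRNA SCARNA13, had a TPM of 13.9 and 15.2 in WT and of 10.9 in each KO library (log2 fold change -0.53, standard error 0.09, 95% interval -0.73 to -0.32, limma adjusted p = 0.0272). SNHG4, host of SNORA74A, was at 23.0 and 27.2 in WT and at 21.0 and 20.35 in KO (log2 fold change -0.40, standard error 0.07, limma adjusted p = 0.0381). SNHG1, the host of SNORD22 and of the run of C/D snoRNAs from SNORD25 to SNORD31, was at 178 and 182 in WT and at 149.8 and 142 in KO (log2 fold change -0.43, standard error 0.09, limma adjusted p = 0.0495).

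These 3 were 13% of the 23 tested hosts, beside 467 of all 14741 genes tested that were lower (3.17%) and 194 that were higher (1.32%). Those counts over all genes were 188 and 100 without WT replicate 1, 767 and 473 without WT replicate 2, 172 and 35 without KO replicate 1, and 125 and 31 without KO replicate 2. None of the hosts changed by 2-fold or more, against 1.02% of all genes lower and 0.339% higher by that rule. These 150 and 50 genes became 84 lower without WT replicate 1, and 26 and 22 higher without KO replicate 1 or KO replicate 2. At an unadjusted p under 0.05, limma put 7 hosts lower (30.4%) and 1 higher (4.35%), beside 14.1% and 10.8% of all genes. The median log2 fold change of the tested hosts was -0.21, that of all genes -0.01, and 20 of the 23 had a negative value, beside 7528 of all 14741 genes, with a host median under 0 in each scaling tried. Among the 1811 other lncRNAs tested the median was -0.10. GAS5 was at 366 and 329 in WT and at 267 and 266 in KO, but missed the threshold (log2 fold change -0.51, standard error 0.13, limma adjusted p = 0.0771). The same held for SNHG11, at 10.5 and 11.3 against 8.84 and 7.49 (log2 fold change -0.52, adjusted p = 0.0507), and for SNHG9 (log2 fold change -0.40, adjusted p = 0.0591). DANCR, known for keeping progenitor cells undifferentiated, had the highest fold change, with a TPM of 71.35 and 79.1 in WT and of 101 and 96.4 in KO (log2 fold change 0.26, standard error 0.07, limma adjusted p = 0.0905). ZFAS1 gave -0.21 with an interval from -0.48 to 0.05.

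The first WT library stood apart. Mitochondrially encoded genes took 23.2% of its TPM, against 14.1% in the other WT library and 11.99% and 12.4% in KO, and its scaling divisor was 0.879, against 1.04, 1.06 and 1.04. Their part in the result was not tested. Without WT replicate 1 the median of the hosts was -0.092 and 0 were called (limma adjusted p = 0.0773 for SNHG10, 0.10 for SNHG1 and 0.092 for SNHG4). Without KO replicate 1 or KO replicate 2 again 0 were called (SNHG10 adjusted p = 0.117 and 0.144), while without WT replicate 2 the count was 8 lower, GAS5 among them (-0.70, adjusted p = 0.00574), with a median of -0.33. With TPM rescaled after removal of mitochondrial genes and SETD2, SNHG10 and SNHG1 were called, GAS5 as well (-0.49, adjusted p = 0.0433), and SNHG4 was not (adjusted p = 0.0561). SNHG1 missed with a pseudocount of 0.1 (adjusted p = 0.0508). With the deposited TPM used as it stands, the median of all genes moved from -0.01 to 0.11, that of the hosts to -0.088, 0 hosts were called, and 53.3% of all calls were higher in place of 29.3%.

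**Figure D2:**
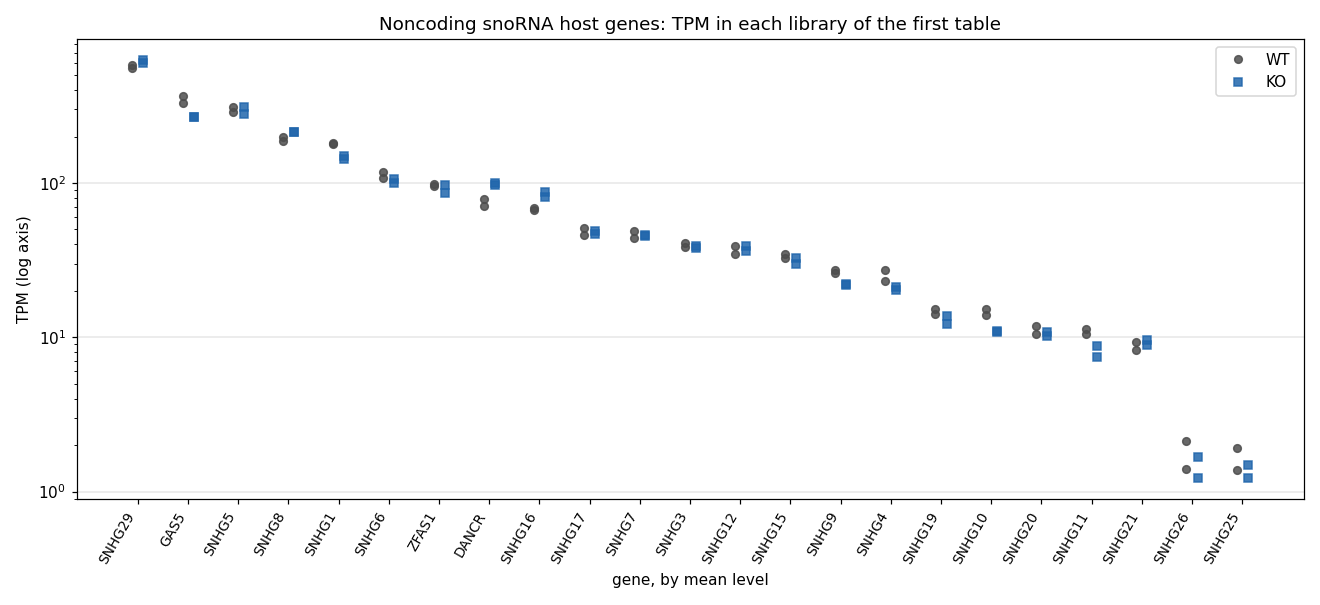
TPM of the 23 tested hosts in each library of the first table, on a log axis, with genes in order of mean level; circles are WT and squares KO, 2 libraries each. Most hosts differ little beside the range of levels, and GAS5 and SNHG1 lie lower in both libraries labelled KO.

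Full-length SETD2 in KO cells gave no host past the threshold. By limma 0 of 24 hosts were higher and 0 lower at an adjusted p of at most 0.05, beside 28 of all 15929 genes higher (0.176%) and 5 lower (0.0314%), with 0.0753% higher and 0.00628% lower by 2-fold or more. The 28 and 5 became 4 and 0 without KO replicate 2 or SETD2 FL replicate 3, 2 and 0 without KO replicate 4, and 9 and 0 without SETD2 FL replicate 4. They were 15 and 7 without SETD2 C replicate 1 and 16 and 7 without SETD2 C replicate 2, and 47 and 11 with TPM as deposited. By 2-fold or more, 12 genes were higher and 1 lower, and 3 and 0 without KO replicate 2, 2 and 0 without KO replicate 4, 4 and 0 without SETD2 FL replicate 3, and 6 and 0 without SETD2 FL replicate 4. Without SETD2 C replicate 1 or SETD2 C replicate 2, 4 were lower. At an unadjusted p under 0.05, 12 hosts were lower (50%) and 1 higher (4.17%), against 7.23% and 8.69% of all genes. The median was -0.15 over the hosts and 0.01 over all genes, and 18 of 24 hosts had a negative value, beside 7736 of all 15929 genes. Over the 2486 other lncRNAs tested the median was -0.05. Hosts in bulk RNA are read as a mean over transfected and untransfected cells, so a change in each cell and a change in the share of cells cannot be told apart.

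Among the hosts under that unadjusted level, SNHG1 was at 386 and 401 in KO and at 314 and 306 with SETD2 FL (log2 fold change -0.36, standard error 0.07, limma adjusted p = 0.0999). SNHG19, a short host of SNORD60, was at 76.2 and 78.3 against 62.0 and 53.3 (log2 fold change -0.44, standard error 0.10, limma adjusted p = 0.129). SNHG29 was at 1051 and 1179 against 882 and 889, and GAS5 at 756 and 850.0 against 673 and 636 (log2 fold changes -0.35 and -0.31, adjusted p = 0.124 and 0.162). SNHG17, which holds SNORA71A to SNORA71D, had the highest value, at 48.5 and 44.6 in KO and 59.2 and 61.2 with SETD2 FL (log2 fold change 0.35, standard error 0.06, limma adjusted p = 0.0835), and passed the threshold when TPM was rescaled after removal of mitochondrial genes and SETD2 (0.41, adjusted p = 0.0483). The lowest value was that of SNHG25 (-0.52, 95% interval -2.12 to 1.08), whose libraries disagreed within each group. ZFAS1 gave -0.14 (adjusted p = 0.348) and DANCR -0.19 (adjusted p = 0.182).

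With SETD2 C, hosts differed from KO in both directions. SNHG1, SNHG21, SNHG10, SNHG12, ZFAS1, SNHG19, SNHG11 and SNHG17 were higher, with fold changes of 1.19 to 1.55, and SNHG8, SNHG5, SNHG16, DANCR and SNHG25 were lower. SNHG1 was at 386 and 401 in KO and at 640.2 and 717 with SETD2 C (log2 fold change 0.63, standard error 0.07, 95% interval 0.48 to 0.79, limma adjusted p = 0.000551). SNHG21, host of the scaRNA SCARNA15, was at 19.96 in each KO library and at 33.4 and 35.9 with SETD2 C (log2 fold change 0.63, standard error 0.07, limma adjusted p = 0.000593). SNHG12, host of SNORA44 and SNORD99, was at 59.7 and 62.3 against 89.9 and 100.2 (log2 fold change 0.49, standard error 0.06, limma adjusted p = 0.00143). SNHG10, the host of SCARNA13, was at 22.5 and 24.4 in KO and at 34.9 and 39.8 with SETD2 C (log2 fold change 0.51, standard error 0.09, limma adjusted p = 0.0053). With SETD2 FL against KO, SNHG10 had given -0.29 (limma adjusted p = 0.218). ZFAS1, which starts opposite to ZNFX1 and carries the SNORD12 family, was at 219 and 242 against 348 and 325 (log2 fold change 0.40, standard error 0.07, limma adjusted p = 0.00342). Smaller differences passed for SNHG19, at 76.2 and 78.3 against 112 and 99.7 (0.30, adjusted p = 0.0411), SNHG11, at 11.4 and 10.8 against 15.0 and 15.4 (0.30, adjusted p = 0.0161), and SNHG17, at 48.5 and 44.6 against 61.35 and 61.15 (0.25, adjusted p = 0.0135). Of these, SNHG11 and SNHG17 passed no longer without KO replicate 4 (adjusted p = 0.0808 and 0.0822), SETD2 C replicate 1 (0.0536 and 0.0612) or SETD2 C replicate 2 (0.0792 and 0.0592). SNHG19 did not pass without KO replicate 2 (0.14), KO replicate 4 (0.0935) or SETD2 C replicate 1 (0.199), nor with no filter (0.114), eBayes without trend (0.104) or all gene types (0.0642).

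SNHG8, host of SNORA24, was at 256 and 243 in KO and at 213 and 219 with SETD2 C (log2 fold change -0.36, standard error 0.05, limma adjusted p = 0.00218). SNHG5, whose SNORD50A and SNORD50B are among its introns, was at 651 and 652 against 602 and 591 (log2 fold change -0.28, standard error 0.05, limma adjusted p = 0.00384). SNHG16, host of SNORD1A, SNORD1B and SNORD1C, was at 189 and 182 against 177 and 173 (-0.23, adjusted p = 0.00881). DANCR was at 149 and 158 against 147 and 146 (-0.21, adjusted p = 0.0168). The sizes depend on the scaling: with the TPM as deposited the values were -0.21 for SNHG8, -0.13 for SNHG5, -0.08 for SNHG16 and -0.07 for DANCR, and SNHG8 alone passed (adjusted p = 0.0314). SNHG25 had the lowest fold change (log2 fold change -2.07, standard error 0.69, 95% interval -3.67 to -0.47, limma adjusted p = 0.0486). Its reference transcript is 311 bases long and its exons overlap SNORA50C, and KO libraries had a TPM of 63.0 and 104, SETD2 FL libraries 34.9 and 93.9, and SETD2 C libraries 9.23 and 46.55. SNORA50C was listed at 9.85 and 16.95 in KO, at 9.80 and 3.37 with SETD2 FL, and at 0 and 0 with SETD2 C. Its part in the SNHG25 value was not tested. For SNHG25, replicates of each group lay further apart than the means of KO and SETD2 FL did. The call was lost without KO replicate 2 (-2.44, adjusted p = 0.0722), KO replicate 4 (-1.71, adjusted p = 0.181) or SETD2 C replicate 1 (-0.94, adjusted p = 0.208), and without SETD2 C replicate 2 the value was -3.20 (adjusted p = 0.00937). It was lost too with a pseudocount of 0.1 (0.0513), no filter (0.158), eBayes without trend (0.114) and all gene types (0.0839). DANCR was not called without KO replicate 4, SETD2 C replicate 1 or SETD2 C replicate 2 (adjusted p = 0.0965, 0.0603 and 0.0836), and SNHG16 without KO replicate 2 or SETD2 C replicate 2 (adjusted p = 0.0532 and 0.0596). With the rescaled TPM neither passed (0.107 and 0.0704), and DANCR failed with quantile normalization (0.0742) and eBayes without trend (0.0655).

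In all, 8 of 24 hosts were higher with SETD2 C than in KO (33.3%) and 5 lower (20.8%), beside 3357 of 15929 genes higher (21.1%) and 2404 lower (15.1%). Over all genes 2061 were higher and 1727 lower without SETD2 C replicate 1, 1733 and 1330 without SETD2 C replicate 2, and 1590 lower without KO replicate 4. Of the 2486 other lncRNAs tested, 30.9% were higher and 4.02% lower, and of the 13419 protein-coding genes 19.2% and 17.1%. By 2-fold or more no host was higher (3.75% of all genes) and SNHG25 was lower (0.314%, which is 50 genes, and 77 without SETD2 C replicate 1). At an unadjusted p under 0.05, 12 hosts were higher (50%) and 6 lower (25%), against 27.4% and 19.7%. SNHG22 is among the 6, and it passed the filter only through KO and SETD2 FL libraries, which shapes a lower value with SETD2 C. The median was 0.18 over the hosts, 0.05 over all genes and 0.32 over the other lncRNAs. Genes at low level can pass the filter through the SETD2 C libraries alone, which shapes a higher value with SETD2 C. When TPM had to reach 1 throughout the table, the median was 0.0019 over all genes and 0.20 over the hosts. By 2-fold or more, 267 genes were then higher in place of 597. The share of such genes among the other lncRNAs was not tested. The split between higher and lower calls moved with the scaling. It was 61.5% higher among host calls and 58.3% among all calls as given above, 88.2% and 83.2% with TPM as deposited, 81.2% and 75.7% with TPM rescaled after removal of mitochondrial genes and SETD2, and 68.8% and 46.9% with quantile normalization. That 68.8% stands for 11 hosts higher and 5 lower, and SNHG22 is among the 5. Its call carries no weight, since the filter admits it only through KO and SETD2 FL libraries. The median of all genes was 0.18 with TPM as deposited. The 13 called hosts had the same direction under each scaling. Without SETD2 C replicate 1 the count was 5 higher, and 3 were lower without KO replicate 2, KO replicate 4, SETD2 C replicate 1 or SETD2 C replicate 2. SNHG1, SNHG21, SNHG10, SNHG12, ZFAS1, SNHG8 and SNHG5 were called without each library in turn.

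**Figure D3:**
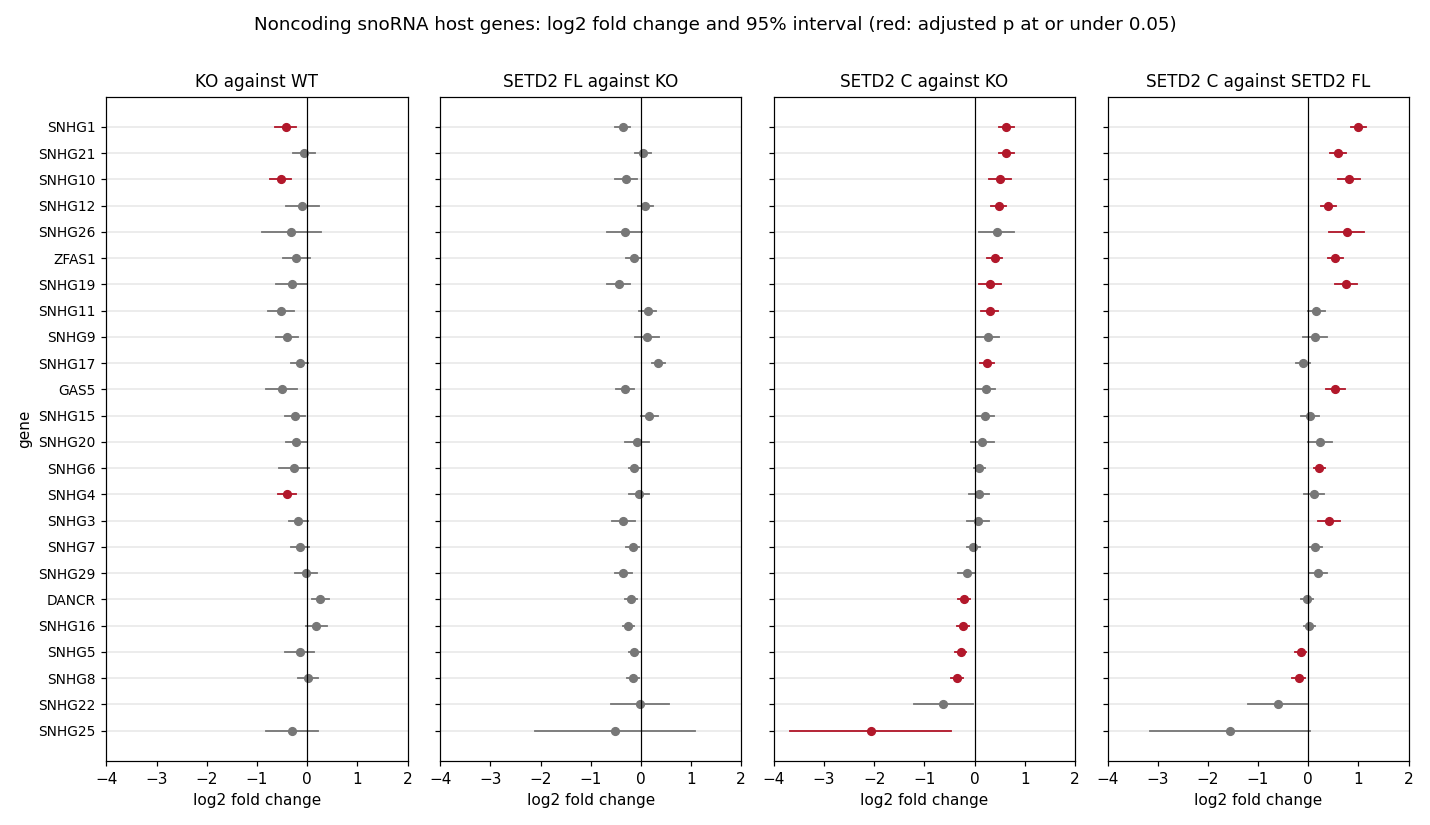
Log2 fold change of each tested host, with its 95% interval, in the 4 comparisons, with genes in the order of their value for SETD2 C against KO; red marks an adjusted p of at most 0.05. SNHG1, SNHG10, SNHG19 and ZFAS1 lie left of 0 for SETD2 FL against KO and right of 0 for SETD2 C against KO and against SETD2 FL. SNHG25 has the widest interval in each comparison of the second table, and SNHG26 has it in KO against WT.

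SETD2 C was also set against SETD2 FL, a comparison in which both groups were transfected. The level listed under SETD2 differed between them too (log2 fold change 1.46, limma adjusted p = 7.09e-06), with the limit on transcript length given above. Its part in the host values was not tested. This comparison shares the SETD2 C libraries with the one above, and its values stand beside those rather than in support of them. SNHG1 was at 314 and 306 with SETD2 FL and at 640.2 and 717 with SETD2 C (log2 fold change 0.998, standard error 0.07, 95% interval 0.84 to 1.15, limma adjusted p = 6.55e-05). That lay just under the 2-fold rule, which it met under each of 3 other scalings, at 1.03 to 1.13, and without SETD2 FL replicate 3 (1.05) or SETD2 C replicate 1 (1.07). SNHG10 was at 20.3 and 18.4 against 34.9 and 39.8 (0.80, standard error 0.09, limma adjusted p = 0.000751), and SNHG19 at 62.0 and 53.3 against 112 and 99.7 (0.75, standard error 0.10, limma adjusted p = 0.00106). GAS5 was at 673 and 636 against 1081 and 997 (0.54, standard error 0.08, limma adjusted p = 0.00185), and against KO it gave 0.22 (adjusted p = 0.0597). GAS5 was called against KO under each of the 3 other scalings, at 0.32 to 0.37 (adjusted p = 0.00383 to 0.0236), with a filter of TPM 1 in every library (0.0476) and without KO replicate 4 (0.31, adjusted p = 0.0386).

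ZFAS1 was at 205 and 218 against 348 and 325 (0.54, limma adjusted p = 0.000884), SNHG21 at 21.1 and 20.6 against 33.4 and 35.9 (0.59, adjusted p = 0.000666), and SNHG12 at 65.4 and 66.2 against 89.9 and 100.2 (0.40, adjusted p = 0.00279). SNHG3, host of the SNORA73 pair, was at 75.65 and 65.9 against 102 and 104 (0.41, adjusted p = 0.0121). It was not called without SETD2 FL replicate 4 or SETD2 C replicate 2 (adjusted p = 0.0605 and 0.0606), nor with no filter (0.0534). SNHG26, a host at low level with a TPM of 1.83 and 1.72 against 3.72 and 3.62, gave 0.77 (adjusted p = 0.0064). SNHG6, host of SNORD87, was at 188 and 201 against 243 and 252 (0.22, adjusted p = 0.00944), and was not called without SETD2 FL replicate 3 or SETD2 C replicate 2 (adjusted p = 0.0505 and 0.0645). SNHG8 and SNHG5 were lower, at -0.19 and -0.15 (adjusted p = 0.0224 and 0.0438), though their TPM overlapped between the groups, and both calls were lost under each of the 3 other scalings. SNHG5 was not called with any single library of the second table left out (adjusted p = 0.0636 to 0.18), and SNHG8 was not called without SETD2 FL replicate 4, SETD2 C replicate 1 or SETD2 C replicate 2 (adjusted p = 0.11, 0.0989 and 0.0674). DANCR gave -0.02 (adjusted p = 0.767), and 0.011 to 0.11 under those scalings. SNHG25 was again lowest, at -1.56 with an interval that reached 0.04, and was called without SETD2 C replicate 2 alone (-2.69, adjusted p = 0.0124).

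This made 10 of 24 hosts higher (41.7%) and 2 lower (8.33%), beside 21.4% and 16.8% of all 15929 genes and 34.3% and 2.74% of the other lncRNAs. Over all genes these were 3408 and 2675, and 2248 and 2041 without SETD2 C replicate 1, 1867 and 1569 without SETD2 C replicate 2, and 1744 lower without SETD2 FL replicate 3. By 2-fold or more there was 0 in either direction among the hosts, against 3.36% higher and 0.421% lower, and at an unadjusted p under 0.05 limma put 13 hosts higher (54.2%) and 3 lower (12.5%, SNHG22 among them), against 27.3% and 21.5%. The median was 0.18 over the hosts, 0.04 over all genes and 0.36 over the other lncRNAs. Here too the filter admits genes through the SETD2 C libraries alone, which shapes a higher value for them. With TPM 1 required throughout the table, the median was 1.1e-05 over all genes and 0.19 over the hosts. By 2-fold or more, 263 genes were then higher in place of 536. The share of such genes among the other lncRNAs was not tested. Of the host calls 83.3% were higher and of all calls 56%, and with TPM as deposited, where the median of all genes was 0.16, these were 100% and 77.5%, with quantile normalization 92.3% and 46.8%. That 92.3% stands for 12 hosts higher and 1 lower, and the 1 is SNHG22. Its call carries no weight, since the filter admits it only through KO and SETD2 FL libraries. Mitochondrially encoded genes took 2.93% and 3.37% of the TPM with SETD2 C, 10.95% and 7.79% of it with SETD2 FL, and 7.04% and 6.23% in KO. The part of these in the host values was not tested.

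Hosts that open with a C and at least 4 further C or T bases did not share a direction. With SETD2 C against KO, SNHG12, SNHG19 and ZFAS1 were higher and SNHG5 was lower, SNHG4 gave 0.08 (adjusted p = 0.479), and SNHG18 was listed at 0. SNHG1 and SNHG21, with the highest values in that comparison, do not open with such a run.

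Several hosts share a short stretch of DNA with a coding gene that runs the other way, and the partner's level was read beside the host's. SLC3A2, the heavy chain of amino acid transporters, starts 51 bases from SNHG1. KO libraries had an SLC3A2 TPM of 130.1 and 136, SETD2 FL libraries 197 and 182, and SETD2 C libraries 150.1 and 152. It was higher with SETD2 FL than in KO (log2 fold change 0.49, standard error 0.07, limma adjusted p = 0.0436), lower with SETD2 C than with SETD2 FL (-0.45, adjusted p = 0.00178), and gave 0.04 for SETD2 C against KO (adjusted p = 0.683), where SNHG1 gave 0.63. In KO against WT it gave -0.32 (adjusted p = 0.0525), beside -0.43 for SNHG1. TRAF7, which starts 293 bases from SNHG19, was lower with SETD2 C than in KO (-0.38, adjusted p = 0.00448), where SNHG19 was higher. ZNFX1, 248 bases from ZFAS1, gave -0.10 (adjusted p = 0.571), and RPS2, a ribosomal protein gene 54 bases from SNHG9, was lower (-0.28, adjusted p = 0.00927) where SNHG9 gave 0.26 (adjusted p = 0.0798). In TPM as deposited, RPS2 was at 11083 and 10979 in KO and at 10240 and 9905 with SETD2 C. Partner values come from the median-ratio scaling alone, and no other setting was tried for them. ZBTB37, 800 bases from GAS5 by the GENCODE starts, gave 0.33 against KO (adjusted p = 0.111) and 0.52 against SETD2 FL (adjusted p = 0.0249). ACAA2, 12 bases from SNHG22, gave 0.04 (adjusted p = 0.695), and SEMA5A, 95 bases from SNHG18, did not exceed 0.01 in any library.

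Other genes of the same pathways were read from lists written by hand, which share some genes. Among 18 genes for snoRNP proteins and their assembly factors, 12 were lower and 2 higher with SETD2 C than in KO, beside 15.1% and 21.1% of all genes. The median log2 fold change was -0.27, and it was negative under each scaling (-0.13 with TPM as deposited, with 5 lower and 3 higher). NOP56, a core protein of box C/D particles and itself a snoRNA host, was at 455 and 427 in KO and at 369 and 364 with SETD2 C (log2 fold change -0.41, standard error 0.05, limma adjusted p = 0.000983). RPAP3, of the assembly complex, had the highest value (0.30, adjusted p = 0.0104), and the higher count was 0 without KO replicate 4 or SETD2 C replicate 2 and 1 without SETD2 FL replicate 3, SETD2 FL replicate 4 or SETD2 C replicate 1. Against SETD2 FL 12 were lower and 0 higher, beside 16.8% and 21.4% of all genes, with NOLC1 lowest (-0.47, adjusted p = 0.000701) and DKC1 highest (0.07, adjusted p = 0.37), and 8 lower and 1 higher with TPM as deposited.

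Coding genes that carry snoRNAs in their introns divided. Of 30, 5 were higher and 11 lower with SETD2 C than in KO, beside 21.1% and 15.1% of all genes. Their median of -0.11 became 0.04 with TPM as deposited, with 9 higher and 4 lower, and the count was 7 and 7 with quantile normalization and 7 and 5 with the rescaled TPM. Without single libraries the higher count was 1 (SETD2 C replicate 2), 2 (KO replicate 2, KO replicate 4 or SETD2 C replicate 1) or 3 (SETD2 FL replicate 3 or 4), and the lower count was 6 without SETD2 C replicate 1 and 5 without SETD2 C replicate 2. TAF1D, a factor of RNA polymerase I, was highest, at 182 and 175 in KO and 256 and 293 with SETD2 C (log2 fold change 0.47, limma adjusted p = 0.00188). EEF1B2, a translation elongation factor, was lowest, at 1469 and 1563 against 1052 and 1099.5 (-0.64, adjusted p = 0.000293). Against SETD2 FL 4 were higher and 10 lower, beside 21.4% and 16.8% of all genes, with a median of -0.13, and with TPM as deposited 8 and 7, with a median of -0.0058. There TAF1D was highest (0.60, adjusted p = 0.000634) and EIF5 lowest (-0.70, adjusted p = 0.000494). EIF5 was the 1 gene of the list called with SETD2 FL against KO (0.64, adjusted p = 0.0363, beside 0.176% of all genes higher and 0.0314% lower), at 81.1 and 70.9 in KO and 116 and 125 with SETD2 FL, and the count was 0 without KO replicate 2, KO replicate 4, SETD2 FL replicate 3 or SETD2 FL replicate 4.

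Among 20 translation genes that have a TOP, 0 were higher and 15 lower with SETD2 C than in KO, beside 21.1% and 15.1% of all genes, with a median of -0.21, EEF1B2 lowest and EIF3H highest (-0.0087, adjusted p = 0.90). The count depended on the scaling, with 3 lower and a median of -0.07 with TPM as deposited, 4 lower and a median of -0.04 with quantile normalization, and 6 lower and a median of -0.12 with TPM rescaled after removal of mitochondrial genes and SETD2. It was 9 without KO replicate 2 and 8 without KO replicate 4, SETD2 C replicate 1 or SETD2 C replicate 2. Against SETD2 FL 8 were lower and 0 higher, beside 16.8% and 21.4% of all genes, with a median of -0.12. With TPM as deposited 3 were lower and the median was 0.0076, with quantile normalization 4 were lower and 1 higher, and with the rescaled TPM 5 were lower. Under median-ratio scaling the lower count was 4 without SETD2 FL replicate 4 and 5 without each of the other libraries. Of 20 factors of NMD, 4 were higher and 3 lower against KO, beside 21.1% and 15.1% of all genes, with a median of 0.03. That was 8 and 2 with TPM as deposited (median 0.17), 7 and 2 with TPM rescaled after removal of mitochondrial genes and SETD2 (0.12), and 4 and 2 with quantile normalization (-0.0071). Against SETD2 FL 5 were higher and 3 lower, beside 21.4% and 16.8%, with a median of 0.02, and 8 and 3 with TPM as deposited (0.15). The higher count against KO was 1 without KO replicate 2, KO replicate 4 or SETD2 C replicate 2 and 2 without SETD2 C replicate 1, and against SETD2 FL it was 2 without SETD2 FL replicate 3 or SETD2 C replicate 2. XRN1, the exonuclease that degrades decapped RNA, was highest in both (0.42 and 0.52, adjusted p = 0.0167 and 0.00714), and SMG8, a regulator of the kinase SMG1, lowest (-0.44 and -0.67, adjusted p = 0.00618 and 0.00102).

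In KO against WT, 1 gene over these 4 lists passed, SMG8, which was higher (log2 fold change 0.52, limma adjusted p = 0.0467), beside 1.32% of all genes higher and 3.17% lower. Without WT replicate 1, KO replicate 1 or KO replicate 2 the count of NMD factors was 0, and it was 3 without WT replicate 2, when 1 snoRNP gene and 1 coding host also passed. The medians were 0.09 for the snoRNP genes, -0.01 for the coding hosts, -0.0040 for the translation genes and 0.20 for the NMD factors, beside -0.21 for the noncoding hosts. With TPM as deposited they were 0.22, 0.12, 0.13 and 0.33, and 3 NMD factors and 1 snoRNP gene were called higher, beside 410 of all 14741 genes. The medians of the coding hosts and the translation genes were above 0 under each of the 3 other scalings. The highest and lowest were NOLC1 (0.36) and NOP56 (-0.20), IPO7 (0.34) and RNF149 (-0.29), EIF3A (0.24) and EEF2 (-0.19), and SMG8 and SMG9 (-0.34), none but SMG8 past the threshold. With SETD2 FL against KO the medians were 0.04, -0.0038, -0.09 and 0.0060, beside -0.15, that of the coding hosts being above 0 under each of the 3 other scalings and that of the NMD factors -0.0011 with quantile normalization. There the highest and lowest were RPAP3 (0.24) and FBL (-0.13), EIF5 and EIF4A2 (-0.24), NPM1 (0.012) and EEF1A1 (-0.21), and SMG8 (0.22) and SMG1 (-0.19), none but EIF5 past the threshold. By 2-fold or more 0 genes of these lists were called in any comparison.

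**Figure D4:**
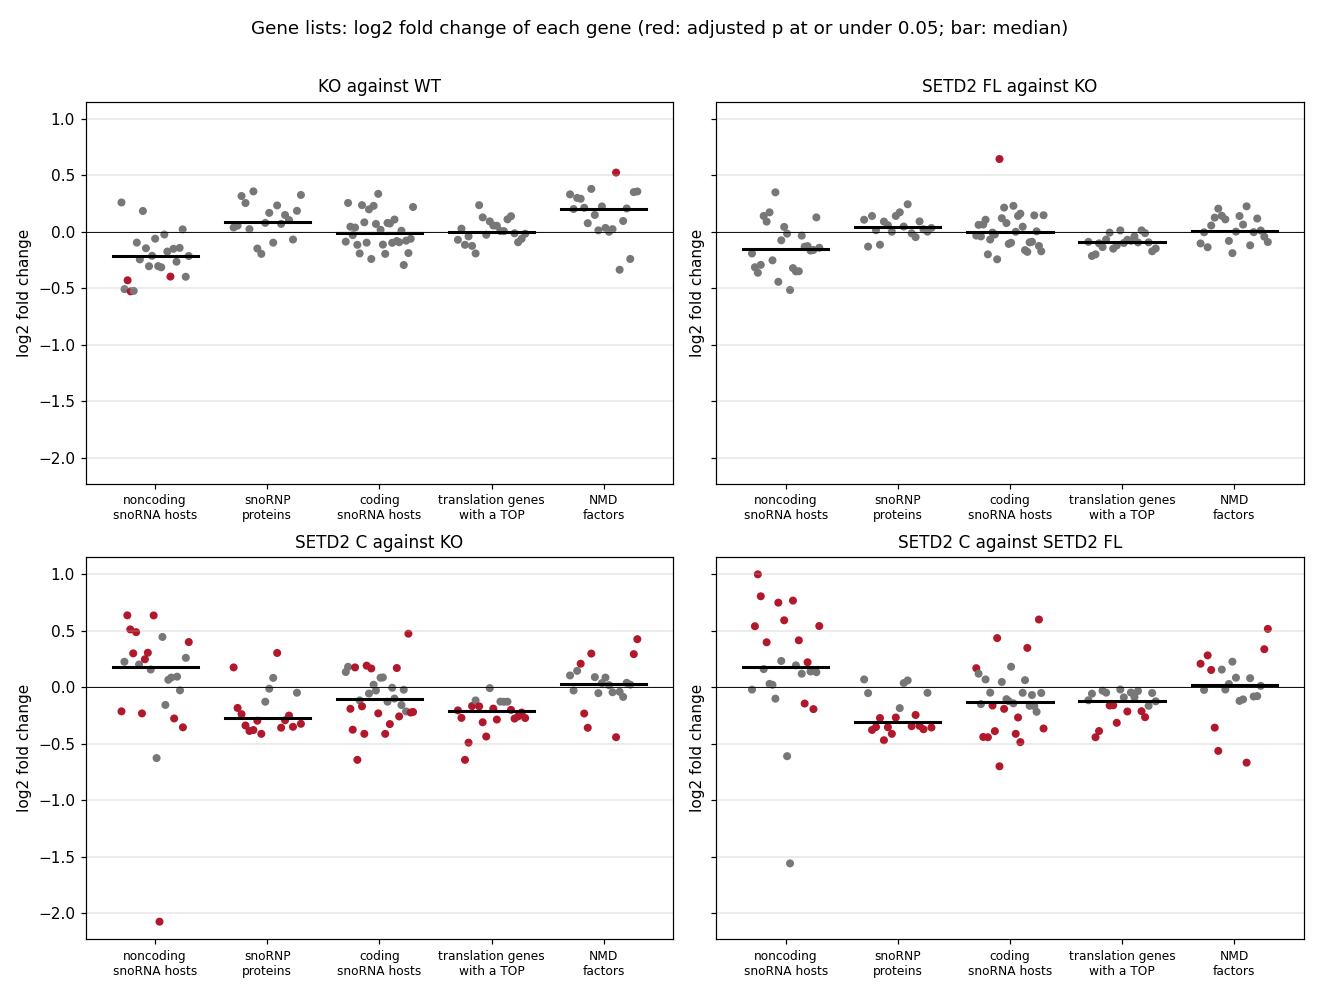
Log2 fold change of each gene of 5 groups in the 4 comparisons; each point is a gene, placed within its group by gene name, red marks an adjusted p of at most 0.05 and the bar is the median. The bar of the noncoding hosts lies under 0 in the 2 upper panels and above 0 in the 2 lower ones, where that of the snoRNP genes lies under 0.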

How the data were processed

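The data were 10 RNA-seq libraries from HEK293T cells. Total RNA was depleted of ribosomal RNA and enriched for polyadenylated RNA. Per the labels and the study's methods, the authors aligned reads with STAR 2.6.1c, estimated levels with RSEM 1.3.0 and deposited TPM per gene. TPM keeps no read depth, so no counting error can be given. The authors tested counts with edgeR, and those were not used here.

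Libraries were scaled by the median-ratio method, taking as reference those coding and lncRNA genes whose TPM was 1 or more throughout the table. Genes of those types by GENCODE 44 (58472 matched by identifier, 18 by symbol, 394 unmatched) with a TPM of at least 0.5 in 2 libraries were tested two-sided in R 4.3.3 by limma 3.58.1, which fitted log2 of scaled TPM plus 0.5 (eBayes with trend), with Benjamini-Hochberg adjustment over all genes tested. The added 0.5 makes fold changes of low genes too small. The 6 libraries of the second table shared 1 fit. With 2 libraries against 2, an exact permutation test could not give a p under 0.333. Calls used an adjusted p of at most 0.05, alone or with a fold change of at least 2. The procedure was tested on simulated data, and no outcome of that test is reported or relied on here.

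Hosts named were those called in any comparison, the 5 most abundant of the second table, GAS5, ZFAS1 and DANCR, and the highest and lowest of each comparison. For lists, the highest and lowest gene were named, and so was each coding gene that starts close by on the other strand. SNHG9 and KRT8 were singled out after their values were seen. Members and lists were chosen with earlier results of these data known. Alternatives were pseudocounts of 0.1 and 1, other filters, no scaling, quantile normalization, TPM rescaled without mitochondrially encoded genes and SETD2, eBayes without trend, all gene types, a replicate block, a fit of the 2 groups compared, and each library left out. The H3K36me3 ChIP-seq samples were not analysed here.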

Additional observations from a re-analysis of the deposited data

How the results depend on the processing

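The 13 and 12 hosts called with SETD2 C against KO and against SETD2 FL, and the 3 called in KO against WT, had the same direction under every alternative run. The threshold was another matter, and the cause was not tested.

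In KO against WT, where 3 hosts were lower, 0 were called with no filter, with no scaling and with eBayes without trend, and 1 with all gene types, SNHG10. SNHG1 was lost with a pseudocount of 0.1, SNHG4 was lost and GAS5 added with rescaled TPM, and SNHG11 was added with a filter of TPM 1 in every library. With each library left out in turn, 0 to 8 were lower and the median ran from -0.33 to -0.092. It was -0.088 with no scaling. WT and KO share the replicate numbers 1 and 2, and a replicate block gave 6 hosts lower, SNHG11, GAS5 and SNHG9 being added. Over genes, the difference between replicates correlated at 0.147 between WT and KO, and nothing else pairs these libraries. The groups of the second table share fewer than 2 numbers, so no paired analysis was possible there.

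For SETD2 FL against KO, TPM rescaled without mitochondrially encoded genes and SETD2 gave 1 host higher, SNHG17, and a median of -0.088, and with each library left out the median ran from -0.21 to -0.14. SNHG25 ran from -1.20 to 0.16 and reversed without SETD2 FL replicate 3.

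For SETD2 C against KO, 15 hosts were higher and 2 lower with no scaling (median 0.32) and 13 and 3 with the rescaled TPM (median 0.27), and 3 were lower with eBayes without trend. Calls lost were SNHG25 with a pseudocount of 0.1, SNHG19 and SNHG25 with no filter and all gene types, these and DANCR with eBayes without trend, DANCR with quantile normalization, SNHG16 and DANCR with rescaled TPM, and these and SNHG5 with no scaling. GAS5, SNHG15 and SNHG9 were added under each of the 3 scalings, and SNHG22 was added as lower with quantile normalization, a call that carries no weight. With each library left out, 5 to 9 were higher, 3 to 5 lower and the median ran from 0.11 to 0.20. The 1 host lower by 2-fold became 0 with a pseudocount of 0.1, no filter, eBayes without trend and all gene types, and was 0 to 1 with a library left out.

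For SETD2 C against SETD2 FL, 16 hosts were higher with no scaling (median 0.30). In place of 2 lower, SNHG8 and SNHG5, the count was 1 with no filter and with a fit of the 2 groups, SNHG8 each time, and 1 with quantile normalization, SNHG22, which the filter admits only through KO and SETD2 FL libraries, so that call carries no weight. It was 0 with no scaling, rescaled TPM and eBayes without trend, and 0 to 1 with a library left out, the 1 without SETD2 C replicate 2 being SNHG25. By 2-fold, 1 host was higher with no scaling, quantile normalization and rescaled TPM, and 0 to 1 with a library left out, and 0 to 1 lower. DANCR reversed to 0.11 with no scaling, 0.059 with quantile normalization and 0.011 with rescaled TPM. With 1 library left in a group, its spread is assumed to be that of the other groups.

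Counts over all genes moved as well. With no scaling, 410 genes were higher and 359 lower in KO against WT, where 194 and 467 had been. These were 20 and 66 with no filter, 119 and 294 with eBayes without trend, 127 and 307 with all gene types, 439 and 825 with the replicate block, and 31 to 473 and 125 to 767 with a library left out. By 2-fold or more, KO against WT gave 50 higher and 150 lower. With no filter these were 15 and 58, and with a pseudocount of 1 32 and 96. A filter of TPM 1 in every library gave 23 and 60. SETD2 FL against KO gave 28 and 5, and 3 and 0 with no filter, 47 and 11 with no scaling, 57 and 4 with rescaled TPM, 10 and 0 with eBayes without trend, 6 and 1 with all gene types, 16 and 7 with a fit of the 2 groups, and 2 to 16 and 0 to 7 with a library left out. With no scaling, SETD2 C against KO gave 5507 and 1115 in place of 3357 and 2404, and SETD2 C against SETD2 FL 5189 and 1508 in place of 3408 and 2675. With rescaled TPM, 1472 were lower in SETD2 C against KO. By 2-fold or more, SETD2 C against KO gave 597 higher and 50 lower. These were 342 and 130 with quantile normalization, 986 and 93 with a pseudocount of 0.1, and 335 and 38 with a pseudocount of 1. A filter of TPM 1 in every library gave 267 and 34, and all gene types gave 79 lower. By the same rule SETD2 C against SETD2 FL gave 536 higher and 67 lower. With quantile normalization these were 337 and 125, with a pseudocount of 0.1 852 and 104, and with a pseudocount of 1 317 and 45. A filter of TPM 1 in every library gave 263 and 45. Library depth cannot be read from TPM, and low hosts such as SNHG22 and SNHG26 carry a counting error that is unknown.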
